A study of Caenorhabditis elegans with 9 samples.

Results

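The C-type lectin (*clec*) family of *C. elegans* was examined in worms given no bacteria, diluted bacteria or undiluted bacteria for 24 h. Its members were taken as the rows of the deposited count table whose symbol is *clec-* followed by a number, which gave 264 genes of 46926 in the table. Wild-type worms of the strain N2 were raised from synchronized eggs on *E. coli* HT115 and, at adult day 1, moved to plates with 10 µg/mL kanamycin, an antibiotic that stops the bacteria from growing. There they had no food (DR0), diluted HT115 (DR1) or undiluted HT115 (ad libitum, AL). RNA of whole worms was enriched for polyA and sequenced, with 3 libraries per condition. The conditions differ in food alone as far as the labels say, the strength of the dilution is not in the labels, and they do not state if libraries are from separate cultures.

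C-type lectins carry a C-type lectin-like domain, a fold that in many animal proteins binds sugars in a calcium-dependent way, and many of the worm proteins have a signal peptide and are secreted. The worm genome holds a far larger set of them than the human genome, and members expressed in the intestine are widely used as readouts of the response to pathogens. *clec-60* is a reporter gene for infection with Gram-positive bacteria, *clec-67* and *clec-85* depend on the p38 kinase PMK-1 for their normal level, and the CLEC-39 and CLEC-49 proteins bind *Serratia marcescens*. For most of the other members no role is known, and none is given below.

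Of the 264 genes, 239 are annotated as protein-coding and 25 as pseudogenes. By the annotation of Ensembl release 115 (WBcel235) they lie mainly on chromosome V (96 genes), chromosome IV (58), chromosome II (51) and chromosome I (38), with 18 on chromosome III and 3 on X. Only 104 members passed the filter on low counts, 3 of them the pseudogenes *clec-23*, *clec-44* and *clec-46*. Of the 160 that did not, 8 had no read in any library, 59 had 1 to 9 reads over all 9 libraries and 93 had at least 10, with 84 for the deepest of them (*clec-145*). These 160 genes were left out of the tests below. An edgeR fit was also run without the filter, which 8 of them with no read could not enter. In it, 11 of the 160 rose and 4 fell in DR0 against AL, and 6 rose and 2 fell in DR1 against AL. Of all genes fitted, 7.20% rose and 5.04% fell in DR0, and 6.86% rose and 5.22% fell in DR1. These shares include the genes that passed the filter, of which 11.3% rose and 8.16% fell in DR0 in the main fit. They are thus an unlike set for the 160 genes, and the share among filtered-out genes alone is not given. The proteins of the tested members ranged from 153 residues (*clec-196*) to 3514 (*clec-78*), with a median of 360.

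Libraries held between 9203611 and 12012750 counts in genes, and levels are given as TMM-scaled CPM (counts divided by the scaled library size). Among the tested members, 14 averaged 100 CPM or more over the 9 libraries, 43 averaged 10 CPM or more, and 61 were below 10 CPM. Markers of intestine, muscle, neurons and germ line were detected in every library. Scaling by total counts in place of TMM would move the median of all tested genes by 0.055 on the log2 scale for DR0 against AL, by 0.35 for DR1 against AL and by -0.29 for DR0 against DR1.

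The family as a whole took its largest share of the RNA in fed worms and its smallest in DR1. Its summed level lay between 8412 and 8579.9 CPM in DR0, 5607 and 5873 CPM in DR1, and 10706 and 10933 CPM in AL, which is 0.802%, 0.664% and 0.986% of all counts on average. The 3 conditions did not overlap in this sum, which is a description with no test. More members were detected in the restricted conditions than in AL: between 90 and 97 of the 264 genes had 10 counts or more in the DR0 libraries and between 92 and 106 in the DR1 libraries, against 79 to 84 in the AL libraries. The same count over all genes is not given. Of all tested genes below 10 CPM, 19.9% were called higher and 8.99% lower in DR0 than in AL. For DR1 against AL these shares were 19.2% and 7.43%, so the detection count is not read as particular to the family. In whole worms, fewer cells of a type and less RNA per cell cannot be told apart.

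One gene held a large part of the sum. *clec-63* (WBGene00009394, II:12895638-12897446, forward strand) was the member with the highest level per kb of exon, with 3137, 3279 and 3125 CPM in DR0 and 2000.2, 1862 and 2074 CPM in DR1, against 2251, 2163 and 2264 CPM in AL. The DR0 libraries all lay above AL. Those of DR1 lay below AL on this scale, but the direction in DR1 turned with the scaling, at 0.18 with total counts and 0.48 with quantile normalization. The differences were small, at 0.51 ± 0.03 for DR0 against AL (log2 fold change ± s.e., adjusted p = 4.44e-12) and -0.17 ± 0.03 for DR1 against AL (adjusted p = 1.34e-04), within the 2-fold limit set for a call. It made up 37.5% of the family's level in DR0 and 34.4% in DR1, against 20.5% in AL. Without *clec-63* the other 263 members summed to 5307 ± 23.1 CPM in DR0 and 3766 ± 28.7 CPM in DR1, against 8612 ± 63.7 CPM in AL (SD, n = 3 each).

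**Figure D1:**
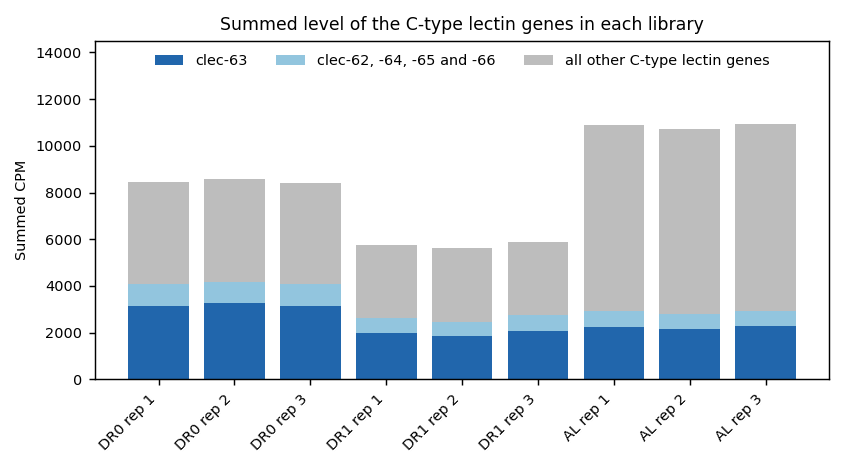
Summed CPM of the 264 C-type lectin genes in each of the 9 libraries, with DR0 at the left, DR1 in the middle and AL at the right, split into *clec-63*, the other genes of its run (*clec-62* to *clec-66*) and all other members. The grey part, the members outside that run, averages 4374 CPM in DR0 and 3134 CPM in DR1, against 7944 CPM in AL.

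Per kb of exon, 9 genes followed *clec-63*, in the order *clec-196*, *clec-87*, *clec-65*, *clec-50*, *clec-150*, *clec-85*, *clec-1*, *clec-266* and *clec-41*. Mean levels over the 9 libraries ran from 1898 CPM per kb for *clec-63* and 648 CPM per kb for *clec-196* to 197 CPM per kb for *clec-41*. The order depended on the food. In AL, *clec-85* (897 CPM per kb), *clec-50* (798 CPM per kb) and *clec-87* (693 CPM per kb) came next after *clec-63*, while in DR0 the next were *clec-196* (864 CPM per kb), *clec-65* (567 CPM per kb) and *clec-150* (449 CPM per kb). Exons of *clec-87* share 14.4% of their bases with *iars-2* on the opposite strand and those of *clec-266* share 12.2% with *kqt-1*. Counting ignored the strand and left out reads that could belong to more than 1 gene, so the levels of these genes are less certain.

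Among the well expressed members with no call against AL in DR0 were *clec-196*, *clec-65*, *clec-266* and *clec-150*. *clec-196*, which encodes the shortest protein of the tested members, had 468, 474 and 459 CPM in DR0 and 336, 389.5 and 305 CPM in DR1, against 230.3, 259.8 and 225 CPM in AL. All 6 restricted libraries exceeded all 3 AL libraries, but the difference of 0.97 ± 0.06 in DR0 (adjusted p = 5.73e-12) was just within the 2-fold limit, and it passed that limit under 4 of the alternatives tried, up to 1.04. *clec-266* had 658, 683 and 690.0 CPM in DR0 and 630.4, 641 and 602 CPM in DR1, against 522, 522 and 534 CPM in AL, log2 differences of 0.36 and 0.25. *clec-52*, a gene listed in pathogen studies, had 148, 146 and 145 CPM in DR0 against 146, 148 and 145 CPM in AL, a difference of 0.00 ± 0.05 (adjusted p = 0.963). In DR1 it had 112.9, 114.3 and 106.55 CPM, below every DR0 and AL library. Its difference of DR1 against AL was -0.40 ± 0.05 (adjusted p = 1.54e-07), near the 0.35 by which total-count scaling would move that comparison.

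Without food, equal numbers of members moved in each direction. A gene was called when its adjusted p was under 0.05 and its change over 2-fold. In DR0 against AL, 25 of the 104 tested members rose (24.0%) and 25 fell (24.0%), where 11.3% of all tested genes rose and 8.16% fell. The median log2 fold change of the members was 0.022, beside 0.034 for all tested genes, and the median size of the change regardless of sign was 1.10 beside 0.49. Rises were more frequent among the less expressed members. Among the 43 members at 10 CPM or more, 7 rose and 14 fell, while among the 61 members below it 18 rose and 11 fell. Of all tested genes at 10 CPM or more, 5.36% rose and 7.57% fell, and of those below it 19.9% rose and 8.99% fell. The members that rose had a median of 4.91 CPM in DR0 and 0.454 CPM in AL, and those that fell had a median of 7.23 CPM in DR0 and 36.8 CPM in AL. Together the 25 members that fell summed to 1029 CPM in DR0 against 4771 CPM in AL, and the 25 that rose to 484 CPM in DR0 against 140.4 CPM in AL.

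**Figure D2:**
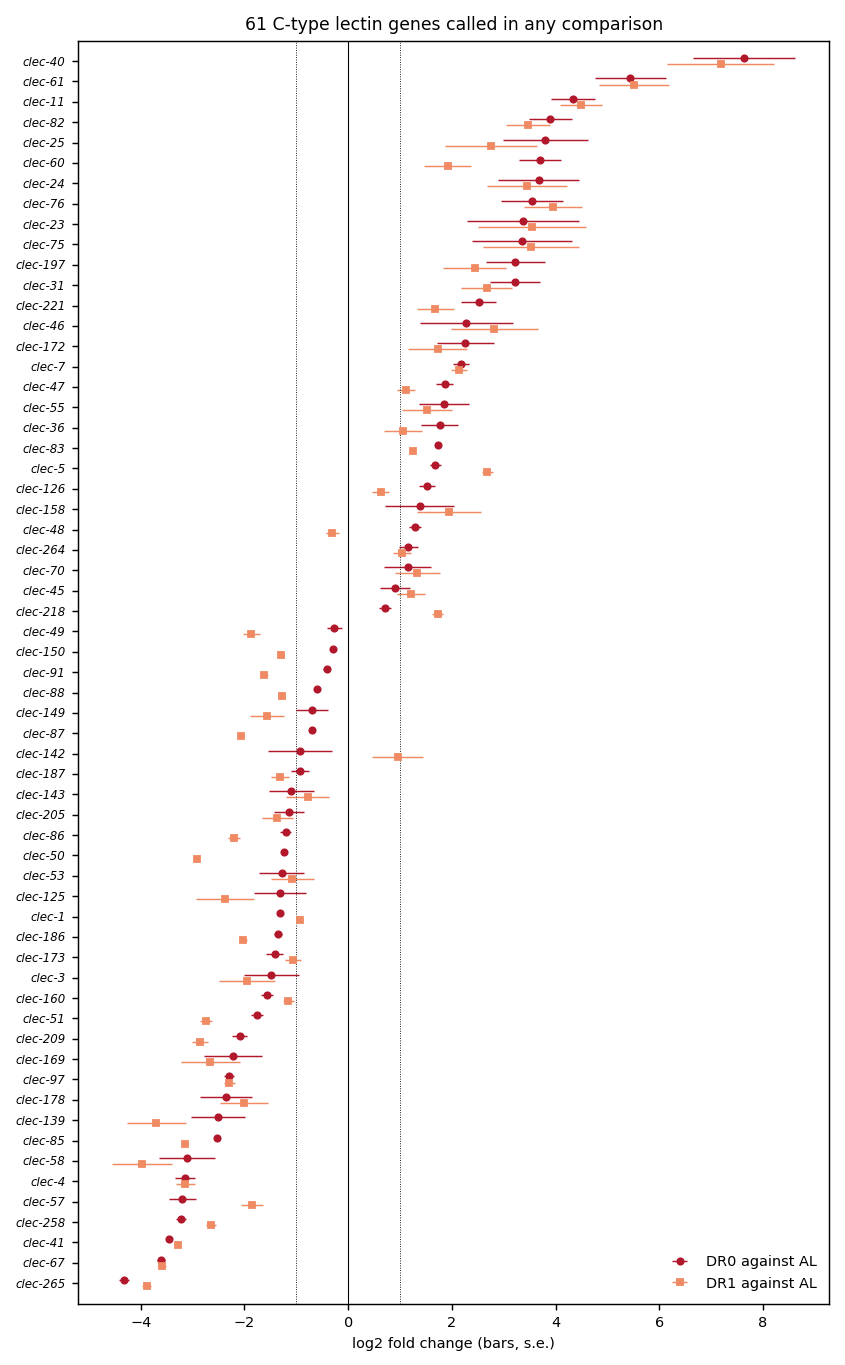
log2 fold change of DR0 against AL (dark circles) and of DR1 against AL (light squares) for the 61 members called in any of the 3 comparisons, sorted by DR0 against AL, with bars for the s.e. and dotted lines at 2-fold. Both comparisons use the same AL libraries. The fitted value of *clec-40*, at the top, depends on a small count added by the fit, since this gene had no read in AL.

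Several of the best expressed members in AL were among the largest falls. *clec-265* (WBGene00019738, X:3031783-3033117, forward strand) had 6.34, 6.41 and 8.93 CPM in DR0 and 8.76, 9.57 and 11.13 CPM in DR1, against 151, 145 and 143 CPM in AL. The groups were far apart, with a change of -4.33 ± 0.10 in DR0 (adjusted p = 6.98e-21) and -3.89 ± 0.09 in DR1 (adjusted p = 8.42e-21). *clec-41* (WBGene00007153, V:13134903-13138101, reverse strand), from the pathogen list, had 124, 126 and 118.99 CPM in DR0 and 141.6, 130.4 and 145 CPM in DR1, against 1354, 1351 and 1342 CPM in AL, where it was among the most abundant members. It fell by 3.45 on the log2 scale in DR0 (s.e. 0.05, adjusted p = 4.01e-26) and by 3.28 in DR1 (s.e. 0.04, adjusted p = 6.54e-26).

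*clec-67* and *clec-85*, which depend on PMK-1, and *clec-4* of the pathogen list also fell. *clec-67* had 16.3, 16.2 and 13.7 CPM in DR0 and 14.3, 16.4 and 15.7 CPM in DR1, against 178, 193 and 192 CPM in AL, changes of -3.61 ± 0.08 and -3.60 ± 0.08 with adjusted p = 1.10e-21 and 4.68e-22. *clec-4* had 4.84, 3.43 and 2.38 CPM in DR0 and 4.75, 2.734 and 3.12 CPM in DR1, against 31.7, 31.2 and 30.3 CPM in AL, changes of -3.14 ± 0.20 and -3.14 ± 0.19. In *clec-67* and *clec-4* the DR0 and DR1 libraries overlapped each other and lay far below AL. *clec-85* (WBGene00021872, IV:2850886-2855456, forward strand) had 237, 222 and 207 CPM in DR0 and 144, 139 and 154 CPM in DR1, against 1303, 1241 and 1314 CPM in AL. Its fall of 2.54 in DR0 (s.e. 0.05) was smaller than that of 3.14 in DR1 (s.e. 0.05), and the difference between DR0 and DR1 was 0.61 ± 0.05 (adjusted p = 4.50e-10), within 2-fold. Exons of *clec-85* share 27.7% of their bases with Y54G2A.40 on the same strand.

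The other large falls in DR0 were of *clec-258*, *clec-57* and *clec-58*. *clec-258* had 8.99, 8.29 and 7.94 CPM in DR0 and 12.78, 11.9 and 12.804 CPM in DR1, against 78.7, 79.5 and 77.3 CPM in AL. Its 3 conditions were separate, with changes of -3.22 ± 0.10 in DR0 and -2.65 ± 0.09 in DR1. *clec-58* had 0.346, 0.111 and 0.496 CPM in DR0 and 0.274, 0.0911 and 0.152 CPM in DR1, against 2.89, 2.41 and 3.29 CPM in AL, and its DR0 and DR1 libraries overlapped. *clec-57* is described with the genes that differed between DR0 and DR1. *clec-1*, among the 10 members with the highest level per kb, had 139, 126 and 144 CPM in DR0 and 182, 184 and 169 CPM in DR1, against 333, 348 and 342 CPM in AL. It fell in DR0 (-1.32 ± 0.05, adjusted p = 2.12e-16), and the difference in DR1 (-0.94 ± 0.05) did not reach 2-fold.

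**Figure D3:**
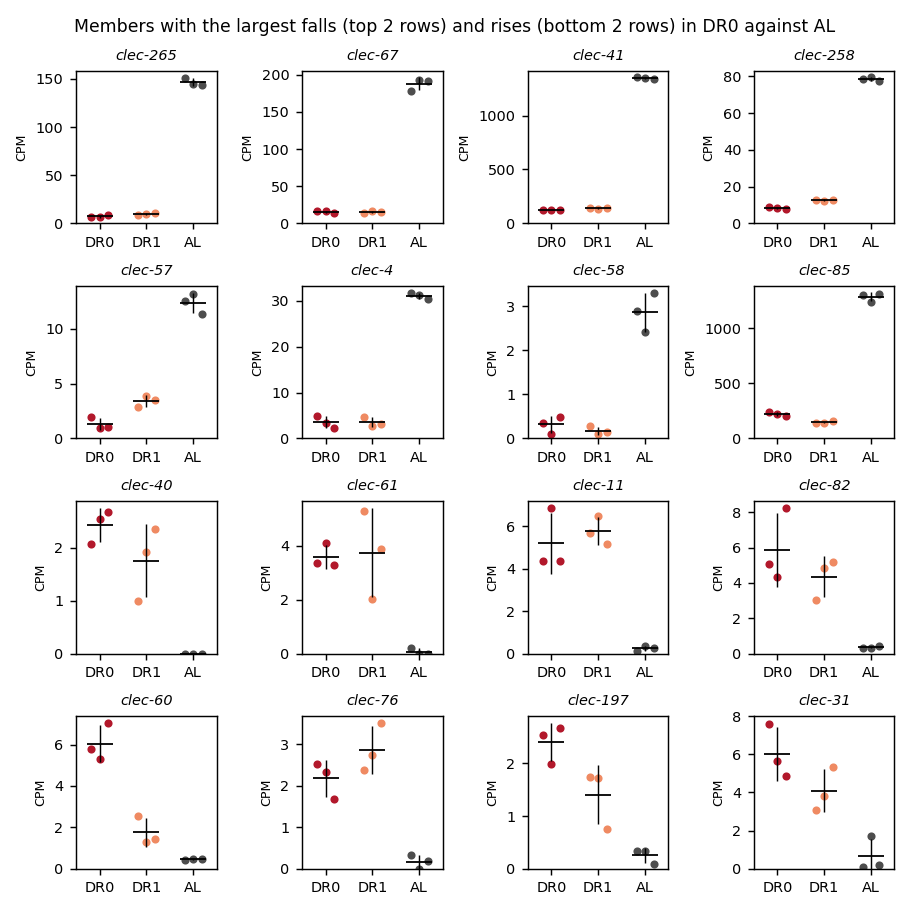
CPM in each library (points), with the mean and SD (bar and line), for the 8 members with the largest falls and the 8 with the largest rises in DR0 against AL among called members with at least 2 CPM in the higher condition. Within each panel DR0 is at the left, DR1 in the middle and AL at the right, and each CPM axis starts at 0. In all 16 panels the AL libraries are separate from both restricted conditions.

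The members that rose were mostly close to silent in fed worms: 16 of the 25 averaged under 1 CPM in AL. The filter on low counts ran over all 3 conditions, so members this low in AL entered the tests only through the restricted libraries. Their direction is therefore in part set by the filter. The share of all genes that rose from under 1 CPM in AL is not given. *clec-40* (WBGene00011853) had no read in the 3 AL libraries and 2.08, 2.54 and 2.68 CPM in DR0 and 1.00, 1.91 and 2.36 CPM in DR1, so that it was at least 23.2-fold higher in DR0 and at least 16.8-fold higher in DR1, taking 3 counts over the AL group as the floor. *clec-61* had 3.34, 4.09 and 3.27 CPM in DR0 and 5.29, 2.01 and 3.89 CPM in DR1, against 0.222, 0 and 0 CPM in AL, which is 99 reads in DR0 and 131 in DR1 against 2 in AL. The ratio of its CPM was 51.0 for DR0 against AL (95% Clopper-Pearson interval 13.7 to 427) and 53.4 for DR1 against AL (95% interval 14.5 to 446), and these intervals cover counting error only. For 4 more members that rose, *clec-23*, *clec-24*, *clec-25* and *clec-75*, only 2 or 3 reads were counted over the AL libraries, so the sizes of their changes have wide intervals.

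Among the other rises from a low level, *clec-11* had 4.38, 6.85 and 4.37 CPM in DR0 and 5.66, 6.47 and 5.18 CPM in DR1, against 0.111, 0.345 and 0.275 CPM in AL, changes of 4.34 ± 0.42 and 4.49 ± 0.41. Its exons share 31.1% of their bases with another gene on the opposite strand. *clec-82* had 5.07, 4.31 and 8.24 CPM in DR0 and 3.01, 4.83 and 5.18 CPM in DR1, against 0.333, 0.345 and 0.458 CPM in AL, changes of 3.90 ± 0.42 and 3.47 ± 0.42. *clec-76*, *clec-31* and *clec-197* rose likewise in DR0, by 3.55 ± 0.59, 3.22 ± 0.48 and 3.22 ± 0.57, and had at most 1.72 CPM in any AL library. The call of *clec-197* in DR1 (2.44 ± 0.60) was lost with quantile normalization.

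Of the 25 members that rose in DR0, 7 averaged 10 CPM or more. The best expressed of them was *clec-83*, a neighbour of *clec-82* and *clec-85* (WBGene00021879, IV:2839371-2841472, reverse strand). It had 267, 274 and 269.7 CPM in DR0 and 188, 195 and 195 CPM in DR1, against 80.6, 82.5 and 79.7 CPM in AL. The 3 conditions were separate, with changes of 1.74 ± 0.05 in DR0 (adjusted p = 9.79e-20) and 1.25 ± 0.05 in DR1 (adjusted p = 5.86e-17). *clec-7* had 30.1, 24.1 and 29.6 CPM in DR0 and 25.3, 27.1 and 28.7 CPM in DR1, against 5.0001, 8.27 and 5.31 CPM in AL, changes of 2.18 ± 0.16 and 2.14 ± 0.15. Unlike in *clec-83*, its DR0 and DR1 libraries overlapped.

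With diluted food, about as many members fell as rose, and which was the larger number depended on the scaling. In DR1 against AL, 26 of the 104 tested members rose (25%) and 30 fell (28.8%), where 10.6% of all tested genes rose and 8.62% fell. With total-count scaling 30 rose and 24 fell, beside 20.2% and 5.27% of all tested genes, and with quantile normalization 14 rose and 32 fell, beside 7.52% and 8.76%. The median log2 fold change of the members was -0.18, beside 0.033 for all tested genes, and the median size was 1.10 beside 0.49. At 10 CPM or more, 6 members rose and 18 fell, beside 4.58% and 9.45% of all tested genes at that level, and below it 20 rose and 12 fell, beside 19.2% and 7.43%. The 30 members that fell summed to 1127 CPM in DR1 against 6145 CPM in AL. Since DR0 and DR1 were compared with the same 3 AL libraries, their calls are not independent of each other.

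Besides the genes above, the largest falls in DR1 included *clec-139* and *clec-50*. *clec-139* had 0.461, 0.332 and 0.794 CPM in DR0 and 0.183, 0.365 and 0.152 CPM in DR1, against 1.56, 4.02 and 3.75 CPM in AL, a change of -3.70 ± 0.56 in DR1 that rests on few reads. Among the largest rises in DR1 were *clec-5* and *clec-218*, both of which were higher in DR1 than in DR0. *clec-5* had 29.9, 26.7 and 27.5 CPM in DR0 and 58.9, 52.4 and 56.6 CPM in DR1, against 8.89, 7.70 and 9.43 CPM in AL, changes of 1.68 ± 0.11 in DR0 and 2.68 ± 0.11 in DR1. The 3 conditions were fully separate, and the difference of DR0 against DR1 (-0.998 ± 0.09, adjusted p = 2.64e-09) lay so close to the 2-fold limit that it was called under 10 of the alternatives and not otherwise.

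No food and diluted food differed in 10 members. In DR0 against DR1, 7 of the 104 tested members were higher (6.73%) and 3 were lower (2.88%), where 1.44% of all tested genes were higher and 1.03% were lower. With total-count scaling 5 were higher and 4 were lower, beside 0.398% and 4.21% of all tested genes. The median log2 fold change was 0.20 for the members and 0.0052 for all tested genes. At 10 CPM or more, 6 members were higher and 1 was lower, beside 1.46% and 0.356% of all tested genes at that level, and below it 1 was higher and 2 were lower, beside 1.41% and 1.98%.

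In 5 of the 7 that were higher, the mean DR0 level lay between those of DR1 and AL. *clec-50* (WBGene00012253, V:19752399-19755368, reverse strand) had 359, 357 and 351 CPM in DR0 and 113, 105 and 116 CPM in DR1, beside 856, 818 and 840.1 CPM in AL. It fell in both restricted conditions, with changes of -1.24 ± 0.04 in DR0 and -2.91 ± 0.04 in DR1, and was higher in DR0 than in DR1 by 1.68 ± 0.04 (adjusted p = 7.55e-19). *clec-87* (WBGene00007709, I:10184462-10185520, reverse strand) had 402, 412 and 413 CPM in DR0 and 164, 151 and 162 CPM in DR1, beside 665, 667 and 665 CPM in AL. The groups were far apart, with 1.36 ± 0.04 for DR0 against DR1 (adjusted p = 6.88e-18) and a fall against AL that passed 2-fold in DR1 (-2.07 ± 0.04) but not in DR0 (-0.70 ± 0.04).

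*clec-91*, *clec-49* and *clec-150* had the same order of levels. *clec-91* had 77.1, 80.5 and 81.6 CPM in DR0 and 37.97, 32.2 and 33.5 CPM in DR1, beside 101, 115 and 103 CPM in AL, a difference of 1.21 ± 0.07 for DR0 against DR1 (adjusted p = 1.99e-12). *clec-49*, whose protein binds *S. marcescens*, had 20.1, 19.6 and 28.4 CPM in DR0 and 8.40, 7.66 and 6.48 CPM in DR1, beside 27.3, 22.2 and 32.3 CPM in AL. Its DR0 and AL libraries overlapped (adjusted p = 0.123), while DR1 lay below both, with 1.61 ± 0.17 for DR0 against DR1 (adjusted p = 3.70e-08). *clec-150* had 538, 538 and 529.6 CPM in DR0 and 265, 243 and 293 CPM in DR1, beside 649, 653 and 660.0 CPM in AL. Its difference of 1.003 ± 0.05 was at the 2-fold limit and its call was lost under 10 alternatives, and that of *clec-91* was lost with total-count scaling (0.92).

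The other 2 members that were higher in DR0 than in DR1 were highest in DR0. *clec-60*, the reporter of Gram-positive infection, had 5.77, 5.31 and 7.05 CPM in DR0 and 2.56, 1.28 and 1.45 CPM in DR1, against 0.444, 0.460 and 0.458 CPM in AL. The conditions did not overlap, and it rose in DR0 (3.70 ± 0.40, adjusted p = 2.74e-08) and in DR1 (1.92 ± 0.45, adjusted p = 7.86e-04) and was higher in DR0 than in DR1 by 1.78 ± 0.31 (adjusted p = 5.48e-05), all from low counts. Its call in DR1 was lost with quantile normalization (1.04) and in the test against a fold change of 2, and this test also ended that of DR0 against DR1. *clec-48* (WBGene00007565, V:18158026-18159614, forward strand) had 46.6, 42.1 and 46.3 CPM in DR0 and 17.5, 12.9 and 14.3 CPM in DR1, against 16.2, 19.8 and 19.04 CPM in AL. It was the only tested member called in one direction in one restricted condition with an adjusted p under 0.05 in the other direction in the other, with 1.29 ± 0.11 in DR0 (adjusted p = 8.35e-10) and -0.30 ± 0.12 in DR1 (adjusted p = 0.0371). The DR1 and AL libraries overlapped, and with total-count scaling the difference in DR1 was on the other side of 0 (0.042, adjusted p = 0.774), while the difference of DR0 against DR1 was 1.60 ± 0.11 (adjusted p = 4.42e-11).

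**Figure D4:**
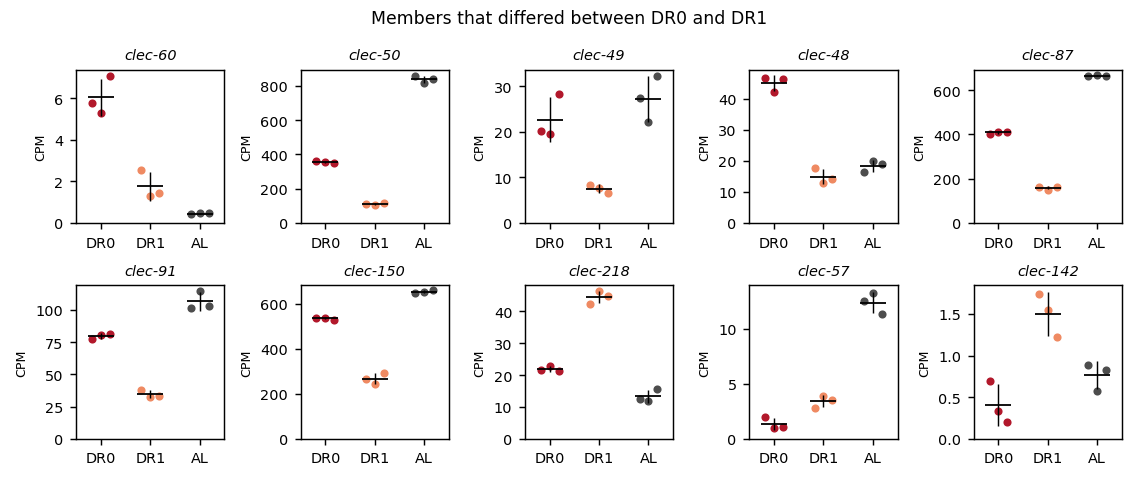
CPM in each library (points), with the mean and SD (bar and line), for the 10 members that differed between DR0 and DR1. Within each panel DR0 is at the left, DR1 in the middle and AL at the right, and each CPM axis starts at 0. In *clec-50*, *clec-49*, *clec-87*, *clec-91* and *clec-150* the DR1 libraries lie below both other conditions, and in *clec-218* they lie above both.

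Of the 3 members that were lower in DR0 than in DR1, *clec-218* had 21.4, 22.9 and 21.2 CPM in DR0 and 42.3, 46.2 and 44.7 CPM in DR1, beside 12.6, 11.8 and 15.6 CPM in AL. It rose in DR1 against AL (1.73 ± 0.11) and was lower in DR0 than in DR1 (-1.02 ± 0.10, adjusted p = 1.32e-08), a call that was lost without DR0 replicate 3 (-0.998) and without DR1 replicate 2 (-0.997). *clec-57* had 1.96, 0.995 and 1.09 CPM in DR0 and 2.83, 3.92 and 3.51 CPM in DR1, beside 12.6, 13.2 and 11.3 CPM in AL. The 3 conditions did not overlap, with changes against AL of -3.20 ± 0.26 in DR0 and -1.85 ± 0.21 in DR1 and -1.35 ± 0.29 for DR0 against DR1 (adjusted p = 6.20e-04). The third, *clec-142*, was below 2 CPM in every library and is named only because the count is small, with 0.692, 0.332 and 0.198 CPM in DR0 and 1.73, 1.55 and 1.22 CPM in DR1. Its call was lost with DESeq2, in the test against a fold change of 2 and without DR0 replicate 3 (-1.53). Without that library, only 1 member was lower in DR0 than in DR1, which was *clec-57*.

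Many members are neighbours in the genome. With no more than 20 kb between consecutive genes, 129 of the 264 members stood in 24 runs of 3 or more, and 43 of these 129 were tested. In 11 runs no member was tested, among them all 8 genes of a run on chromosome II (*clec-127* to *clec-134*) and all 8 of a run on chromosome V (*clec-250* to *clec-257*). Near-identical neighbours can lose reads to each other in counting, and how alike the members are was not measured.

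Some runs with several tested members did not move as 1 block. Of the 8 runs with at least 3 tested members, 4 held members that rose beside members that fell in DR0 against AL, and 4 did so in DR1 against AL. On chromosome IV, *clec-82* and *clec-83* rose and *clec-85* fell within 31.7 kb, with *clec-80* (0.11 in DR0) and *clec-84* (-0.41 in DR0) not called. On chromosome II, *clec-60* and *clec-61* rose beside *clec-58*, which fell, and *clec-143* (-1.10 ± 0.44 in DR0), whose call was lost under 7 alternatives and whose exons share 11.3% of their bases with *tnc-2*. In the run of *clec-67* on chromosome IV, with 14 members and 6 tested, *clec-67* fell while *clec-70*, *clec-75* and *clec-76* rose in both restricted conditions. On chromosome V, *clec-57* fell while *clec-55* rose (1.85 ± 0.48 in DR0 and 1.53 ± 0.48 in DR1, the call in DR1 being lost under 3 alternatives), and *clec-54* and *clec-56* between them were not called.

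The run with the most tested members moved one way. It lies on chromosome V between 16839121 and 16869840 (30.7 kb), with 15 members, and 6 of its 8 tested members rose in DR0 and in DR1 alike (*clec-40*, *clec-23*, *clec-25*, *clec-36*, *clec-31* and *clec-24*), by edgeR, limma-voom and DESeq2. The other 2, *clec-26* (0.79 in DR0 and 0.75 in DR1) and *clec-28* (0.97 and 0.38), were not called. All of these genes were low, with at most 7.61 CPM in any DR0 library, and exons of *clec-25* share 21.4% of their bases with another gene on the opposite strand. Among all tested genes below 10 CPM, 19.9% rose and 8.99% fell in DR0, and 19.2% rose and 7.43% fell in DR1. *clec-40*, *clec-23*, *clec-24* and *clec-25* had no more than 3 reads in AL and passed the filter only through the restricted libraries, so their direction is in part set by it. The calls of *clec-36*, *clec-25* and *clec-23* did not hold under every alternative: that of *clec-36* in DR1 (1.05 ± 0.36) was lost under 5, among them those without DR1 replicate 1, DR1 replicate 3 or AL replicate 2, that of *clec-25* in DR1 under 4, including without DR1 replicate 2 and without AL replicate 3, and that of *clec-23* in DR0 under 3, including without DR0 replicate 2. With 3 reads in AL, the ratio of CPM of *clec-25* was 7.34 for DR1 against AL (95% Clopper-Pearson interval 2.26 to 37.8), and with 2 reads in AL that of *clec-23* was 11.8 for DR0 against AL (95% interval 2.93 to 104).

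The most abundant run, *clec-62* to *clec-66* on chromosome II, held 0 calls in every comparison by edgeR, limma-voom and DESeq2. At an unadjusted p under 0.05 in edgeR, 3 of its 4 tested members exceeded AL in DR0 and 1 was below it, 2 were lower in DR1 than in AL, and 3 were higher in DR0 than in DR1. *clec-65* had 674, 650.4 and 657 CPM in DR0 and 398, 385 and 434 CPM in DR1, against 429, 409 and 427 CPM in AL, which like *clec-63* was above AL in DR0 (0.65 ± 0.04, adjusted p = 6.36e-12) and close to AL in DR1 (-0.06 ± 0.04, adjusted p = 0.275). *clec-62* was 0.38 ± 0.06 in DR0 and 0.03 ± 0.06 in DR1 relative to AL, and *clec-66* was -0.25 ± 0.07 and -0.35 ± 0.06. *clec-64*, between them, was below 1 CPM in every library and was not tested.

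**Figure D5:**
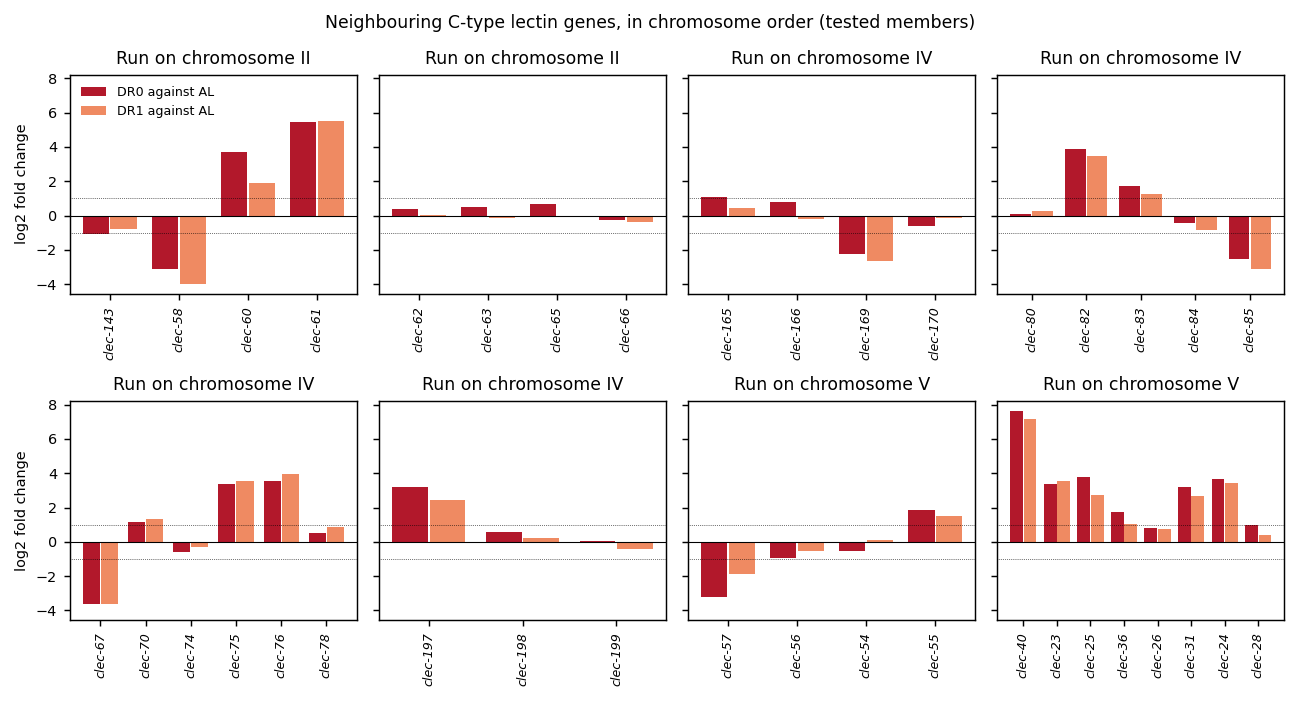
log2 fold change of DR0 against AL (dark bars) and DR1 against AL (light bars) of the tested members in the 8 runs of neighbouring genes with at least 3 tested members, in chromosome order, with dotted lines at 2-fold. In the run at the lower right all 8 bars of each colour point up, while other runs hold long bars in both directions.

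A list of 14 members reported in studies of infection, written with earlier results of these data known, moved in both directions as well. In DR0 against AL, 3 of its 9 tested members rose (*clec-60*, *clec-61* and *clec-70*) and 4 fell (*clec-4*, *clec-41*, *clec-67* and *clec-85*), and in DR1 against AL 3 rose and 5 fell, the fifth being *clec-49* (-1.87 ± 0.17). Over all tested genes, 11.3% rose and 8.16% fell in DR0, and 10.6% rose and 8.62% fell in DR1. The median log2 fold change of the 9 was -0.27 in DR0 and -1.87 in DR1. *clec-70* had 1.27, 2.65 and 1.49 CPM in DR0 and 1.73, 2.37 and 2.06 CPM in DR1, against 1.00, 0.804 and 0.641 CPM in AL, and its call in DR0 (1.15 ± 0.45, adjusted p = 0.0326) was lost under 8 alternatives and that in DR1 (1.33 ± 0.44) under 3. The other 5 listed members (*clec-29*, *clec-34*, *clec-39*, *clec-42* and *clec-71*) did not pass the filter, and *clec-29* was called in DR0 against AL in the fit without it. The summed level of the list was 529 to 562 CPM in DR0 and 419 to 441 CPM in DR1, against 2991 to 3059 CPM in AL. Most of the AL sum was *clec-41* and *clec-85*, which averaged 1349 and 1286 CPM in AL, so it says little about the other members.

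Other genes of defence were set beside the family. For scale, 11.3% of all tested genes rose and 8.16% fell in DR0 against AL, and 10.6% rose and 8.62% fell in DR1. None of the 6 genes of the p38 pathway (*tir-1*, *nsy-1*, *sek-1*, *pmk-1*, *atf-7* and the phosphatase gene *vhp-1*) was called in any comparison, with medians of 0.35 in DR0 and 0.44 in DR1 relative to AL. By limma-voom and DESeq2 the count was 0 as well, and at an unadjusted p under 0.05 in edgeR 4 of the 6 were higher in DR0 and 5 in DR1 than in AL, while in DR0 against DR1 1 was higher and 2 lower. Of 10 other immune regulators, *fshr-1*, a receptor gene, rose in DR0 (1.35 ± 0.15) and DR1 (1.85 ± 0.14) and *egl-5*, a Hox gene, passed the test in DR1 (1.29 ± 0.50). The call of *egl-5*, whose AL libraries ranged from 0.183 to 1.78 CPM, was lost under 8 alternatives, among them DESeq2 and leaving out any DR1 library, AL replicate 2 or AL replicate 3, with values from 0.76 to 1.31.

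Of 29 tested genes for other effectors, such as lysozymes, saposin-like proteins and thaumatins, 9 rose and 12 fell in DR0 and 8 rose and 16 fell in DR1 relative to AL. Beside them, 11.3% of all tested genes rose and 8.16% fell in DR0, and 10.6% rose and 8.62% fell in DR1. The invertebrate-type lysozyme gene *ilys-2* averaged 19.1 CPM in DR0 and 6.10 CPM in DR1, against 0.216 CPM in AL, and *ilys-3* averaged 32.7 CPM in DR0 and 19.6 CPM in DR1, against 0.106 CPM in AL. The PMK-1-dependent gene T24B8.5 fell by 5.78 in DR0 and by 6.03 in DR1 on the log2 scale, and the lysozyme gene *lys-2* fell by 4.93 in DR0 and fell by 4.99 in DR1. Of 12 galectin genes, which encode lectins of another fold, *lec-2* rose in DR0 (3.40 ± 0.04) and DR1 (3.23 ± 0.04), while 4 fell in DR0 and 3 in DR1, with *lec-9* (-3.53 ± 0.06 in DR0 and -4.05 ± 0.06 in DR1) and *lec-6* (-3.15 ± 0.05 and -3.40 ± 0.05) changing most. Between DR0 and DR1, 3 of the effectors were higher in DR0 and 1 was lower, beside 1.44% and 1.03% of all tested genes.

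Markers of tissues moved too, and their part in the results above was not tested. Beside the counts below, 11.3% of all tested genes rose and 8.16% fell in DR0 against AL, and 10.6% rose and 8.62% fell in DR1. In DR0 against DR1, 1.44% of all tested genes were higher and 1.03% lower. Of 8 intestinal markers, 4 fell in DR0 and 4 in DR1 relative to AL, with summed levels of 3423 to 3589 CPM in DR0 and 2217 to 2376 CPM in DR1, against 4171 to 4218 CPM in AL. Most of that sum was *asp-1*, which averaged 2726 CPM in AL. By the adjusted p alone, 3 of the 8 exceeded AL in DR0 and 2 in DR1. Among them were *ges-1* (0.73 in DR0 and 0.999 in DR1) and *elt-7* (0.61 and 0.42). Of 6 tested markers of hypodermis and cuticle, 4 fell in DR0 and 4 in DR1, with 717 to 738 CPM in DR0 and 516 to 561 CPM in DR1, against 6834 to 6940.0 CPM in AL. That sum was nearly all collagen, with AL means of 3384 CPM for *col-140*, 2431 CPM for *col-119* and 1040 CPM for *col-19*. The other 2 tested markers did not fall, as *dpy-7* was higher without a call (0.88 in DR0 and 0.44 in DR1) and *semo-1* was near AL (-0.06 and -0.10). The 10 germ line and oocyte markers in sum, and 8 of them singly, had the order of mean levels of *clec-50*, *clec-87*, *clec-91*, *clec-49* and *clec-150*, while *glp-1* and *glh-1* were lowest in DR0. The sums were 1603 to 1615 CPM in DR0 and 935 to 996 CPM in DR1, beside 2580.3 to 2646 CPM in AL. Of these 10, 2 fell in DR0 and 8 in DR1 relative to AL, and 2 were higher in DR0 than in DR1. This order of means, with DR1 lowest and AL highest, was also seen outside the germ line markers, with no test and no minimum difference. It was held by 6 of 8 markers of hypodermis and cuticle, 4 of 8 of intestine and 4 of 8 of muscle. Among 12 galectin genes 7 had it, and among 10 neuronal markers 1 did. The 6 of hypodermis and cuticle include *bli-1*, which did not pass the filter, and *semo-1*, which was near AL. In DR0 against DR1, *col-19* and *col-119* differed by 0.18 each, and *col-140* (0.68) and *nhr-23* (0.47) by more. Total-count scaling moves the median of this comparison by -0.29, so the smaller differences could turn with it. The share of all tested genes with this order is not given.

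Of 8 muscle markers, 1 rose in DR0 and 2 fell in DR1 relative to AL, and 4 were higher in DR0 than in DR1, with 1331 to 1369 CPM in DR0, 619 to 674 CPM in DR1 and 1269 to 1293 CPM in AL. The 10 neuronal markers summed to 637 to 646 CPM in DR0 and 479 to 493 CPM in DR1, against 481 to 503 CPM in AL, and the pharyngeal markers to 73.5 to 77.8 CPM in DR0 and 58.6 to 67.2 CPM in DR1, against 67.1 to 72.2 CPM in AL. The 3 coelomocyte markers were at 3.89 to 8.20 CPM in sum in every library. Sperm markers were near 0, with 3 of 10 tested and sums of 4.47 to 5.30 CPM in DR0 and 8.11 to 9.77 CPM in DR1, against 12.9 to 16.1 CPM in AL. Of the 3 tested, *msp-31* and *msp-33* fell in DR0 and in DR1 relative to AL, and *fer-1* rose in DR1 (1.84 ± 0.30) and was lower in DR0 than in DR1 (-1.05 ± 0.28).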

How the data were processed

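Gene expression was measured by RNA-seq of whole worms in 9 libraries, 3 each of DR0, DR1 and AL. The deposited table holds read counts for each gene, not normalized. Per the paper's methods, reads were mapped to WBcel235 with STAR and counted over exons with htseq-count in union mode without strand, so reads that overlap 2 genes were left out. Totals ranged from 9203611 to 12012750 counts.

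Genes were kept by filterByExpr in edgeR 4.0.16 (R 4.3.3) with TMM factors. A model with a mean for each condition, over all 9 libraries, was tested with glmQLFTest. Adjusted p values are Benjamini-Hochberg over 14332 genes, a call needs an adjusted p under 0.05 and a log2 fold change over 1 or under -1, and the s.e. follows from the log2 fold change and its F statistic (their ratio after taking the root of F). The common biological coefficient of variation was 6.59%. The p values measure the spread between these libraries, which may be technical. CPM per kb uses the exon length of Ensembl release 115, which was also used for positions and overlaps. Of the 264 members, 237 carry the same symbol there.

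The members, lists and markers were chosen with earlier results of these data known. The genes named are the 8 largest rises and falls per comparison among called members that averaged at least 2 CPM in 1 of the conditions compared, the 10 members with the highest CPM per kb, the list from pathogen studies, members with opposite directions against AL and runs of neighbours. *clec-142* falls outside this rule and was chosen after its values were seen. Alternatives were limma-voom (limma 3.58.1), DESeq2 1.42.0, other scalings, filters and thresholds, the replicate number as a block, and leaving out each library or the members with shared exons. The fitting was tested on simulated data.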

Additional observations from a re-analysis of the deposited data

How the results depend on the processing

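Of 78 calls of named members, 57 were kept under every alternative that gave a value, 21 were lost under at least 1 and 0 reversed direction, while 11 values that were not called passed the threshold under at least 1. The number of members higher in DR0 than in AL (25) was 8 at a mean of 5 CPM or more and 14 without members whose exons overlap another gene, and ranged from 25 to 28 when 1 library was left out. The number lower in DR0 than in AL (25) was 16 at 5 CPM or more and 38 by the adjusted p alone, and ranged from 22 to 26. The number higher in DR1 than in AL (26) was 14 with quantile normalization, 6 at 5 CPM or more, 13 in a test against a fold change of 2 and 16 without members with shared exons, and ranged from 23 to 28. The number lower in DR1 than in AL (30) ranged from 28 to 30. The number higher in DR0 than in DR1 (7) was 4 in the test against a fold change of 2, 26 by the adjusted p alone and 4 without members with shared exons, and ranged from 7 to 10. The number lower in DR0 than in DR1 (3) was 0 in the test against a fold change of 2, with 13 by the adjusted p alone, and ranged from 1, without DR0 replicate 3, to 4. A higher minimum, a stricter test and leaving members out lower a count by construction, and the cause of the difference with quantile normalization was not tested.

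Leaving out 1 library also ended single calls. *clec-75* in DR0 against AL was lost without DR0 replicate 2 (2.56), *clec-23* in DR0 against AL without the same library (2.23), *clec-55* in DR1 against AL without AL replicate 2 (1.13), *clec-70* in DR0 against AL without DR0 replicate 2 (0.76), AL replicate 2 (1.14) or AL replicate 3 (0.99) and in DR1 against AL without AL replicate 3 (1.17), and *clec-150* in DR0 against DR1 without DR1 replicate 1 (0.997) or 2 (0.94). *clec-25* in DR1 against AL was lost without DR1 replicate 2 (2.01) or AL replicate 3 (2.13), *clec-36* in DR1 against AL without DR1 replicate 1 (0.87), DR1 replicate 3 (0.95) or AL replicate 2 (0.83), and *clec-143* in DR0 against AL without DR0 replicate 1 or 2 or AL replicate 2 or 3 (-1.14 to -0.93 over the settings that ended it). *clec-28* passed in DR0 against AL without AL replicate 1 (1.79), *clec-26* in DR0 against AL without DR0 replicate 1 (1.06), *clec-166* in DR0 against DR1 without DR1 replicate 3 (1.03) and *clec-25* in DR0 against DR1 without DR1 replicate 2 (1.79).

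With the replicate block the 6 counts were 25, 25, 26, 30, 7 and 3 and no call of a named member changed. Samples with the same replicate number did not visibly deviate together, with correlations between -0.018 and 0.064 and 0 of 9 over 0.1. These correlations run over all tested genes, with those of low counts included. They show no pairing by number but cannot exclude a shared culture or batch. Leaving out members with proteins alike to 90% or more was planned and not run.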
